A study of Mus musculus with 6 samples.

Results

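Replication-type histone genes are the intronless genes of the Hist1, Hist2, Hist3 and Hist4 clusters, and their RNA was followed here in mouse leukemia cells and in wild-type pro-B cells. Every row whose symbol starts with Hist1h, Hist2h, Hist3h or Hist4h was taken if it held 10 or more reads over the 6 libraries, which gave 60 genes of the 33924 in the count table. They comprised 6 genes of type H1, 14 of H2A, 16 of H2B, 12 of H3 and 12 of H4. By cluster, 48 carried a Hist1 symbol, 8 a Hist2 symbol, 3 a Hist3 symbol and 1 a Hist4 symbol. Of the 70 histone rows, 10 stayed under the minimum, and 8 of these held no read at all.

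The leukemia libraries (4) came from bone marrow leukemia cells of genotype Mll-Af4/N-RasG12D, 2 from the leukemia numbered 1 and 2 from the leukemia numbered 92. To make them, marrow of Mll-Af4 mice aged 6 to 8 weeks was depleted of lineage cells and sorted for c-Kit and Sca1, then cultured with mIL7, mSC7 and mFL and transduced with a Cre retrovirus that also carries TdTomato. The sorted Tomato-positive cells received an N-RasG12D retrovirus, and 250000 of them were injected into recipients given 900 rads, together with 200000 wild-type marrow helper cells. The other 2 libraries came from wild-type bone marrow pro-B cells sorted as B220+ CD43+ IgM-, for which the labels give no culture, virus or transplant. The fusion, the N-Ras virus, the culture and the transplant therefore differ between the groups together and cannot be told apart. The labels name no sort of the leukemia cells, so helper-derived and recipient cells may be among them. They number 2 replicates in each group without calling them separate animals. The p-values then measure only the spread between these libraries, or between sums of them, and the spread between libraries may be technical.

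Core histones H2A, H2B, H3 and H4 form the protein spool of the nucleosome, and the linker histone H1 binds the DNA that enters and leaves it. Dividing cells make most of this protein in S phase from these gene clusters, under the coactivator NPAT, and stop when DNA synthesis stops. The mRNAs of replication-type genes end in a conserved stem-loop in place of a poly(A) tail. The stem-loop is bound by SLBP, and U7 snRNP directs the cleavage just behind it. Some of these genes can also give longer, polyadenylated RNAs, which have been reported for Hist1h1c, Hist1h2bc and Hist2h2be in cells that leave the cycle. How much of such RNA a library holds depends on whether RNA with poly(A) tails was selected. The labels name a TruSeq RNA kit and do not state the selection.

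The stem-loop was looked for in the GENCODE M21 mouse transcripts (build GRCm38), since the RNA end bears on what a poly(A) method can see. All 60 genes had a transcript, and 40 of them held a 16-base stem-loop, against 15 of 55281 other genes (0.027%). The other 20 held none in their listed transcript, which says only that the letters were not in that model. The commonest version, found in 23 genes, is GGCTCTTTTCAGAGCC, and 6 genes each held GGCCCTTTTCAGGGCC and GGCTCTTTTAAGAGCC. The stem-loops of the genes on which the results turn are shown 5′ to 3′ as DNA, with the stem-loop in capitals and 5 flanking bases on each side.
Hist1h1c: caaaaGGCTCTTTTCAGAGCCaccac
Hist1h1d: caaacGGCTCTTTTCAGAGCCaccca
Hist1h2ad: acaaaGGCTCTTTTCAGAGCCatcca
Hist2h3c1: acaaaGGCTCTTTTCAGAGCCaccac
Hist1h4f: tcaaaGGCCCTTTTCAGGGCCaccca
Hist3h2ba: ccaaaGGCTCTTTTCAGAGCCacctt
Hist3h2a: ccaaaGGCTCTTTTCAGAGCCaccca
The listed transcripts run on behind the stem-loop by 840 bases in Hist1h1c, 4884 in Hist1h1d, 1643 in Hist3h2a and 169 in Hist3h2ba. They stop after 42 bases in Hist1h2ad and 33 in Hist1h4f. Over all 40 genes, 22 models run more than 100 bases past the stem-loop and 18 do not, and 13 hold the poly(A) signal AATAAA after it. Hist1h1a, Hist1h2bc and Hist2h2be were among the genes with no stem-loop in the model.

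Promoter sequence (250 bases before to 50 after the start, RefSeq, build GRCm38.p6) was matched for 52 of the 60 genes, as 53 windows. The TATA box was searched as TATAAA on both strands. The site of the factor NF-Y was searched as CCAAT, and the octamer bound by OCT1 as ATTTGCAT. None of these motifs contains another. Windows of some neighbouring H2A and H2B genes overlap on opposite strands, such as Hist1h2ad (chr13:23574131-23574430) and Hist1h2bf (chr13:23574158-23574457). A site in the shared sequence then counts for both genes. The TATAAA of that pair is such a site, as is the octamer of Hist1h2ae and Hist1h2bg and that of Hist1h2ah and Hist1h2bk. The shares below are thus of windows and not of separate sites. TATAAA was present in 30 of 53 histone windows (56.6%), against 13.6% of all 32851 promoters. CCAAT was present in 45 (84.9%), against 37.4%. The octamer was present in 12 (22.6%), against 1.74%, with 6 of them among 12 H2A windows and 6 among 14 H2B windows. CCAAT was found in every H1, H2A, H2B and H3 window searched and in 3 of 11 H4 windows. The Hist1 windows lie on chromosome 13, the Hist2 windows on chromosome 3, the Hist3 windows on chromosome 11 and that of Hist4h4 on chromosome 6. The 2 Hist3 windows, of Hist3h2a at chr11:58954435-58954734 (plus strand) and Hist3h2ba at chr11:58948661-58948960 (plus strand), are shown because both genes were lower in every leukemia library. Capitals mark the motifs on either strand.
Hist3h2a: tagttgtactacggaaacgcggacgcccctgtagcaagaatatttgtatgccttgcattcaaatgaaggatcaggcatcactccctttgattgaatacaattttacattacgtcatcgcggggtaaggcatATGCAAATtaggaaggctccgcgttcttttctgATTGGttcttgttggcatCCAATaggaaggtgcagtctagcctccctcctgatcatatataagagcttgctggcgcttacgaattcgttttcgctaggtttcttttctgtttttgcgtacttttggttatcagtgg
Hist3h2ba: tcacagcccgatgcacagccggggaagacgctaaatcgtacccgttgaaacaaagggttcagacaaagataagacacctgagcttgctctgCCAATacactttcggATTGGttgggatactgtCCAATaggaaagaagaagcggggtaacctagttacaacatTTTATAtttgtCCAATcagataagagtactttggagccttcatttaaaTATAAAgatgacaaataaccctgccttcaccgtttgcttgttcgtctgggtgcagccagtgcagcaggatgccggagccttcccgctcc
The Hist3h2a window holds 1 octamer, 2 CCAAT matches and no TATAAA, and the Hist3h2ba window holds 4 CCAAT matches, 2 TATAAA matches and no octamer. A match is a description of letters and shows no binding.

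The libraries held 22153444 to 27444759 reads assigned to genes, and levels are given as CPM, the usual scaling of reads to this library total. Histone genes took 1959 and 8105 reads in replicates 1 and 2 of leukemia 1, 3980 and 2840 in leukemia 92, and 2664 and 2588 in pro-B cells, so many of them rest on few reads. A count of 3 in a library corresponds to 0.109 to 0.135 CPM. The 11 pro-B markers (Cd79a, Vpreb1 and others) summed to 3129 to 4882 CPM in the leukemia libraries and to 4691 and 3823 CPM in the pro-B libraries, and Dntt alone was at 0 in a library (leukemia 92 replicate 2). The sums hide opposite differences, since against pro-B cells 1 of the 11 was higher in edgeR's test, 2 were lower and 8 did not pass. These 3 are named after their values were seen. Cd79a was at 942 to 1393 CPM in leukemia against 486 and 440 CPM, Dntt at 0 to 1.09 CPM against 1046 and 645 CPM, and Rag2 at 1.69 to 6.37 CPM against 51.0 and 39.9 CPM. The part of these markers in the histone differences was not tested. CPM are not scaled for gene length, so levels are compared between libraries and not between genes. Reads that align in more than 1 place are held in a separate entry of 8827517 to 12238474 reads per library. Histone copies with near-identical sequence can therefore lose reads or share them, and Hist2h2aa2 against the empty row Hist2h2aa1, or Hist2h3c1 against Hist2h3c2, are uncertain.

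The 2 libraries of leukemia 1 stood apart from each other in these genes. Of the 53 histone genes with reads in both, 52 were higher in replicate 2, with a median ratio of replicate 2 to replicate 1 of 5.31. Over all genes with 10 or more reads that ratio had a median of 1.07, and 54.3% of the genes were above 1. The exception was Hist2h3c1, an H3 gene, with a ratio of 0.705. Replicate 2 of leukemia 1 held the highest level of the 6 libraries for 46 of the 60 histone genes, against 19.1% of all genes. Replicate 1 held the lowest level, or was tied for it at 0, for 37, and the share over all genes was not computed for this. The median ratio of replicates was 0.856 in leukemia 92 and 0.988 in pro-B cells.

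**Figure D1:**
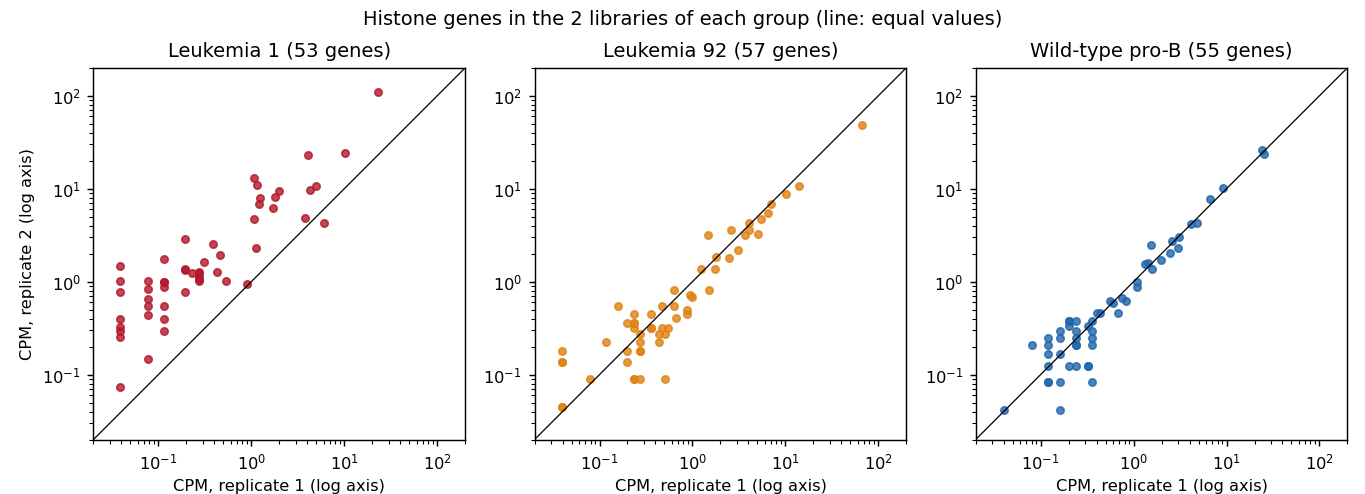
Level of each histone gene in replicate 2 (vertical) against replicate 1 (horizontal) of each group (leukemia 1, leukemia 92, pro-B), in CPM on log axes. The line marks equal values, and genes with no read in a library are left out, which leaves 53, 57 and 55 points. In leukemia 1 all points but Hist2h3c1 lie above the line.

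Other RNA differed between the same 2 libraries. The 12 granulocyte markers, none of them at 0 in any library, summed to 172 CPM in replicate 1 of leukemia 1 and to 16225 CPM in replicate 2. They summed to 757 and 434 CPM in leukemia 92 and to 464 and 486 CPM in pro-B cells. The 107 rows of small nuclear, nucleolar and other RNAs that carry no poly(A) tail summed to 45.0 and 102 CPM in leukemia 1, 93.7 and 120 in leukemia 92, and 58.0 and 48.9 in pro-B cells. The 20 S-phase genes (Mcm2, Pcna and others) were close in the 2 leukemia 1 libraries, at 4338 and 4104 CPM. Npat, which activates histone transcription, was at 104 CPM in replicate 1 and 32.7 CPM in replicate 2, the opposite order to the histone genes. The part of these differences in the histone values was not tested, and the values without each library stand beside the results they change.

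**Figure D2:**
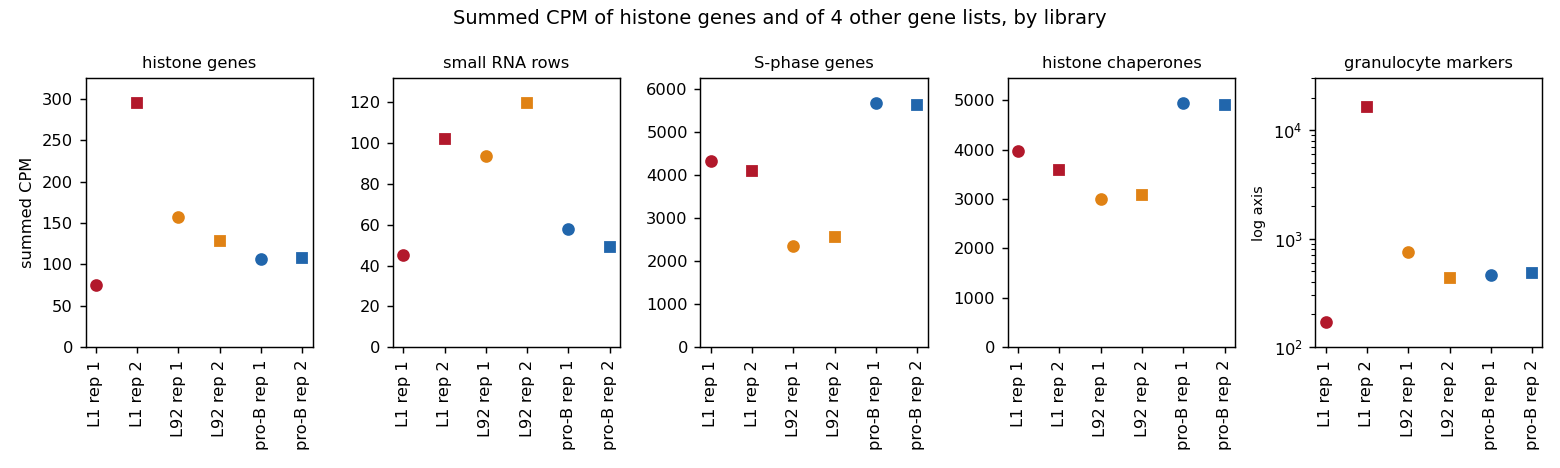
Summed CPM per library of the 60 histone genes, the 107 small RNA rows, 20 S-phase genes, 20 histone chaperone genes and 12 granulocyte markers (log axis). L1 is leukemia 1 and L92 leukemia 92. Histone genes run from 75.6 CPM in leukemia 1 replicate 1 to 295 CPM in replicate 2, while S-phase genes are at 4338 and 4104 CPM in these libraries.

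Leukemia was compared with pro-B cells to ask how these genes differ in the transformed cells. Each leukemia entered as the sum of its 2 libraries, so that 2 leukemias stood against 2 pro-B libraries. The p-values and standard errors of this comparison therefore leave out the difference between the 2 libraries of a leukemia. In leukemia 1 the histone genes differed between these libraries by a median ratio of 5.31. The fit of all 6 libraries as 3 groups, given below, keeps this difference. Of the 43 histone genes with enough reads to test, 7 were higher in leukemia, 2 were lower and 34 did not pass edgeR's quasi-likelihood test at an adjusted p of 0.05. Those higher were the linker genes Hist1h1a, Hist1h1c and Hist1h1d, the H2A gene Hist1h2ad, the H2B gene Hist1h2bc, the H3 gene Hist2h3c1 and the H4 gene Hist1h4f. Those lower were both of type H2B, Hist2h2be and Hist3h2ba. Over all 15280 genes tested by edgeR, 9.54% were higher and 10.7% lower. The log2 change was positive in 40 of the 43 genes, with a median of 1.05, against a median of 0.02 over all genes tested. The filter keeps a gene with few reads through the group in which it is high, so the 43 are not all 60, and without the filter the median over all 60 was 0.87. The 17 genes not tested were 1 of type H1, 4 of H2A, 1 of H2B, 6 of H3 and 5 of H4, and none of them exceeded 0.874 CPM (Hist1h3g in replicate 2 of leukemia 1) in any library. In bulk RNA, fewer cells of a type and less RNA per cell cannot be told apart.

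In an edgeR fit of all 6 libraries as 3 groups, 37 histone genes were tested and 4 of these 9 calls were kept, those of Hist1h2bc, Hist2h3c1, Hist2h2be and Hist3h2ba. That fit gave 2 histone genes higher and 3 lower, against 2107 higher and 2605 lower of all 14979 genes tested. The counts also depended on the leukemia 1 libraries. Without replicate 2 of leukemia 1, 2 histone genes were higher and 2 lower, and the median over the 26 tested fell to 0.22. Of all 14418 genes tested there, 993 were higher and 1725 lower. Without replicate 1, 3 of 32 histone genes were higher and 1 lower, with a median of 1.42. Of all 14631 genes tested there, 935 were higher and 1022 lower. With either pro-B library left out, no gene of the table passed edgeR's adjusted test, at 2645 and 2650 genes with an unadjusted p under 0.05. That holds for each histone gene given as higher or lower here. In the plain ranking of CPM, 10 of the 60 histone genes had all 4 leukemia libraries above both pro-B libraries, against 16.9% of the 17936 genes with 10 or more reads. Another 4 had all leukemia libraries below, against 31.2%, and 46 overlapped. The share above is thus close to that of all genes, and the share below is smaller.

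**Figure D3:**
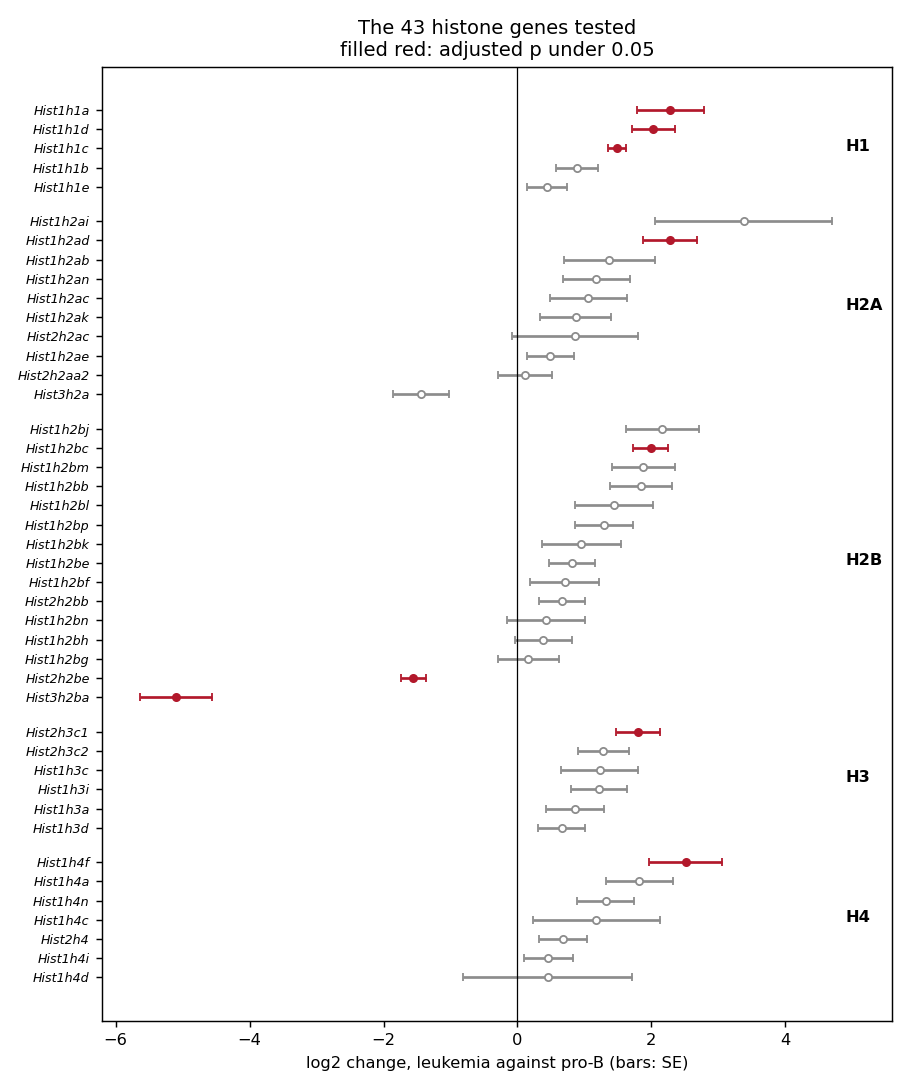
The log2 change of leukemia against pro-B cells (horizontal) with its standard error for the 43 histone genes tested, ordered by type and by size. Red points passed edgeR's test at an adjusted p of 0.05, and 40 of the 43 points lie right of 0. The 3 left of it are Hist3h2a, Hist2h2be and Hist3h2ba.

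Linker histones gave the largest read sums of the 5 types in the leukemia libraries, while in pro-B cells H2B did. The sums are not scaled for gene length, and this order rested on Hist1h1c and Hist2h2be. With both left out, H2B summed above H1 in every library. It was at 17.3 against 9.53 CPM in replicate 1 of leukemia 1, and at 19.8 against 9.75 CPM in replicate 1 of pro-B cells. Of 5 H1 genes tested, 3 were higher in leukemia and none lower, with a median log2 change of 1.49. Hist1h1c, which encodes the somatic linker histone H1.2, took more histone reads than any other gene in 5 of the 6 libraries. It stood at 22.9 and 110.0 CPM in leukemia 1, 67.0 and 49.0 in leukemia 92, and 24.0 and 26.3 in pro-B cells. Both leukemia 92 libraries and replicate 2 of leukemia 1 were above the pro-B libraries, but replicate 1 of leukemia 1 was just below them, so the groups overlapped. Its mean CPM was 62.2 ± 36.7 over the leukemia libraries (SD, n = 4) and 25.1 ± 1.62 over those of pro-B cells (SD, n = 2). Hist1h1c rose by a log2 change of 1.49 (SE 0.14, edgeR adjusted p = 0.014). Without replicate 2 of leukemia 1 it was 0.88 (edgeR adjusted p = 0.31), and without replicate 1 it was 1.90 (edgeR adjusted p = 0.047). In the 3-group fit Hist1h1c did not pass, at 1.45 (edgeR adjusted p = 0.16).

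Hist1h1d, which encodes H1.3, was measured at 1.97 and 9.40 CPM in leukemia 1, 5.40 and 4.74 in leukemia 92, and 1.60 and 1.37 in pro-B cells. All leukemia libraries were above both pro-B libraries, the nearest being replicate 1 of leukemia 1. Hist1h1d rose by a log2 change of 2.03 (SE 0.32, edgeR adjusted p = 0.027). Without replicate 2 of leukemia 1 the change was 1.43 (edgeR adjusted p = 0.19), and in the 3-group fit it did not pass (edgeR adjusted p = 0.090). Hist1h1a, which encodes H1.1, showed the same order. It had 4.09 and 22.9 CPM in leukemia 1, 6.42 and 5.46 in leukemia 92, and 2.44 and 2.04 in pro-B cells. The groups did not overlap, and replicate 2 of leukemia 1 was far above the other leukemia libraries. The log2 change of Hist1h1a was 2.28 (SE 0.50, edgeR adjusted p = 0.049). It did not pass without replicate 1 or 2 of leukemia 1 (edgeR adjusted p = 0.088 and 0.097) or without replicate 1 of leukemia 92 (edgeR adjusted p = 0.056). Nor did it pass in the 3-group fit (edgeR adjusted p = 0.091), and with DESeq2's size factors it was at the threshold (edgeR adjusted p = 0.050).

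The remaining linker genes were nearer to pro-B cells. Hist1h1b, which encodes H1.5, had 1.78 and 8.16 CPM in leukemia 1, 4.02 and 3.61 in leukemia 92, and 2.60 and 2.75 in pro-B cells (log2 change 0.89, edgeR adjusted p = 0.13). Its replicate 1 of leukemia 1 was below both pro-B libraries. The fifth tested, Hist1h1e, which encodes H1.4 and was named after its values were seen, had a log2 change of 0.44 (edgeR adjusted p = 0.35). Hist1h1t, the linker histone of testis, held 8 reads in replicate 2 of leukemia 1 and at most 1 read in any other library and was not tested. The other testis genes listed, Hist1h2ba and Hist1h2aa, held no read.

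Of 15 H2B genes tested, 1 was higher, 2 were lower and 12 did not pass, with a median log2 change of 0.82. Hist1h2bc was at 10.2 and 24.3 CPM in leukemia 1, 14.0 and 10.7 in leukemia 92, and 4.19 and 4.20 in pro-B cells. Each leukemia library was above both pro-B libraries with a wide gap. Hist1h2bc rose by a log2 change of 1.99 (SE 0.27, edgeR adjusted p = 0.021), and it still passed without replicate 1 or 2 of leukemia 1 (edgeR adjusted p = 0.045 and 0.036).

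Hist2h2be, another H2B gene with a reported polyadenylated form, went the other way. It was at 4.98 and 10.7 CPM in leukemia 1, 6.97 and 6.91 in leukemia 92, and 25.4 and 23.5 in pro-B cells, where it gave 23.8% of all histone reads in replicate 1. Each leukemia library was far below the pro-B libraries. Hist2h2be had a log2 change of -1.56 (SE 0.19, edgeR adjusted p = 0.018), and -1.32 without replicate 1 of leukemia 1 (edgeR adjusted p = 0.058). Hist1h2bc and Hist2h2be both lack a stem-loop in the listed transcript, and they moved in opposite directions.

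Hist3h2ba, an H2B gene of the small Hist3 cluster, had the largest fold difference of the histone genes tested. It held 1 and 2 reads in leukemia 1, 1 and 1 in leukemia 92, and 39 and 59 in pro-B cells, or 0.0386 to 0.0729 CPM in leukemia and 1.56 and 2.46 CPM in pro-B cells. The groups were far apart, although the leukemia side rests on 5 reads in all. Its log2 change was -5.10 (SE 0.53, edgeR adjusted p = 0.016), and it passed without any single leukemia library, with an edgeR adjusted p of 0.014 to 0.028.

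**Figure D4:**
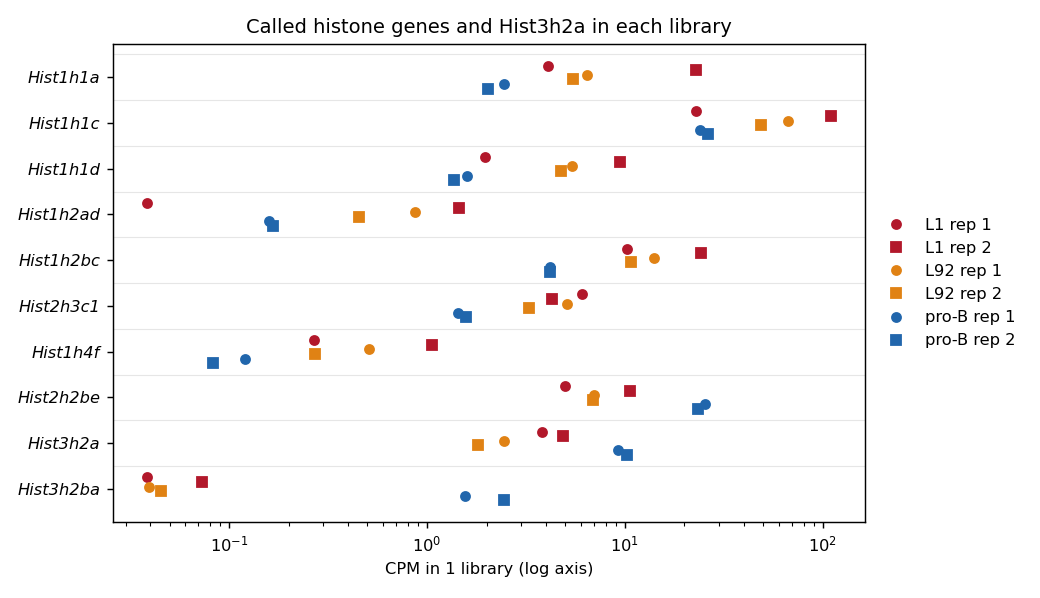
CPM on a log axis in each library for the 9 histone genes that passed edgeR's test and for Hist3h2a. L1 is leukemia 1 and L92 leukemia 92, circles are replicate 1 and squares replicate 2. Hist2h2be, Hist3h2a and Hist3h2ba have both pro-B libraries at the right, and replicate 1 of leukemia 1 lies left of pro-B for Hist1h1c and Hist1h2ad.

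The H2B genes with the next most reads did not pass edgeR's test. Hist1h2bb had 1.16 and 11 CPM in leukemia 1, 2.60 and 3.61 in leukemia 92, and 1.32 and 1.54 in pro-B cells. Only replicate 1 of leukemia 1 was below pro-B cells, and the log2 change was 1.84 (SE 0.47, edgeR adjusted p = 0.066). Hist1h2bb passed in DESeq2 (adjusted p = 0.013) and without replicate 1 of leukemia 92 (edgeR adjusted p = 0.044), but not in the 3-group fit. Hist1h2bg had 1.24 and 7.98 CPM in leukemia 1, 10.1 and 8.67 in leukemia 92, and 6.59 and 7.66 in pro-B cells. Its groups overlapped, with a log2 change of 0.16 (edgeR adjusted p = 0.82).

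Of 10 H2A genes tested, 1 was higher and 9 did not pass, with a median log2 change of 0.96. Hist1h2ad held 1 and 40 reads in leukemia 1, 22 and 10 in leukemia 92, and 4 and 4 in pro-B cells. The single read in replicate 1 of leukemia 1 put that library below pro-B cells, and the other leukemia libraries were above. Its log2 change was 2.28 (SE 0.41, edgeR adjusted p = 0.034). Without replicate 1 of leukemia 1 it was 2.81 (edgeR adjusted p = 0.059) and without replicate 1 of leukemia 92 it was 2.05 (edgeR adjusted p = 0.055). Without replicate 2 of leukemia 1 too few reads were left to test it. Hist1h2ad did not pass in DESeq2 (adjusted p = 0.12), without the filter (edgeR adjusted p = 0.050) or in the 3-group fit (edgeR adjusted p = 0.26).

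Hist3h2a is the H2A neighbour of Hist3h2ba in the same cluster. It was at 3.82 and 4.85 CPM in leukemia 1, 2.44 and 1.81 in leukemia 92, and 9.23 and 10.3 in pro-B cells. The groups did not overlap, leukemia being lower, and leukemia 92 was lowest. The log2 change was -1.44 (SE 0.42), which missed the threshold (edgeR adjusted p = 0.088). It passed in DESeq2 (adjusted p = 0.016) and in the 3-group edgeR fit (adjusted p = 0.011). The third Hist3 row, the pseudogene Hist3h2bb-ps, was also lower in every leukemia library, at 0 to 0.0729 CPM against 0.12 and 0.25 CPM, too few reads to test.

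Summed markers of T and NK cells, plasmacytoid dendritic cells and erythroid cells were also higher in the pro-B libraries. The 12 T and NK markers summed to 6.37 to 63.3 CPM in leukemia and to 602 and 610 CPM in pro-B cells. The 8 plasmacytoid dendritic markers summed to 273 to 314 CPM against 3297 and 3705 CPM, and 11 erythroid markers to 6.05 to 8.31 CPM against 88.1 and 203 CPM. No marker of these lists was at 0 in a pro-B library, while in leukemia libraries Cd3e, Cd3g, Gzma and Ncr1, Klk1, and Car1, Slc4a1, Hba-a1 and Hba-a2 were each at 0 in at least 1. Their part in the lower values of Hist2h2be, Hist3h2ba and Hist3h2a was not tested.

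Other H2A genes followed replicate 2 of leukemia 1. Hist1h2ac had 1.08 and 13.2 CPM in leukemia 1, 3.11 and 2.17 in leukemia 92, and 3.0 and 2.29 in pro-B cells (log2 change 1.05, edgeR adjusted p = 0.26). Only replicate 2 of leukemia 1 was clearly above pro-B cells. Hist1h2ai had 0.193 and 2.84 CPM in leukemia 1, 0.552 and 0.316 in leukemia 92, and 0 and 0.208 in pro-B cells (log2 change 3.38, SE 1.33, edgeR adjusted p = 0.15). Hist1h2ae had a log2 change of 0.49 (edgeR adjusted p = 0.37), with 0.116 and 1.75 CPM in leukemia 1 on either side of every other library.

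Among H3 genes, 6 of 12 had enough reads, and 1 was higher and 5 did not pass (median log2 change 1.22). Hist2h3c1 was at 6.10 and 4.30 CPM in leukemia 1, 5.12 and 3.30 in leukemia 92, and 1.44 and 1.58 in pro-B cells. The leukemia libraries were all above pro-B cells, and here the 2 leukemia 1 libraries were close, with replicate 1 the higher. Hist2h3c1 rose by a log2 change of 1.80 (SE 0.32, edgeR adjusted p = 0.035). It was 1.94 without replicate 2 of leukemia 1 (edgeR adjusted p = 0.039), 1.66 without replicate 1 (edgeR adjusted p = 0.053) and 1.63 without replicate 1 of leukemia 92 (edgeR adjusted p = 0.051).

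Its near copy Hist2h3c2 showed a like pattern at a lower level. It was at 0.888 and 0.947 CPM in leukemia 1, 0.867 and 0.497 in leukemia 92, and 0.36 and 0.375 in pro-B cells (log2 change 1.28, SE 0.38, edgeR adjusted p = 0.089). All leukemia libraries were above both pro-B libraries, though the copies may share reads. Among the Hist1 genes for H3, Hist1h3d had a log2 change of 0.66 (edgeR adjusted p = 0.25) and Hist1h3a of 0.86 (edgeR adjusted p = 0.22), each with leukemia 1 replicate 1 below and replicate 2 above the pro-B libraries.

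Among H4 genes, 7 of 12 were tested, and 1 was higher and 6 did not pass (median log2 change 1.18). Hist1h4f held 7 and 29 reads in leukemia 1, 13 and 6 in leukemia 92, and 3 and 2 in pro-B cells. The groups did not overlap in CPM, on few reads. The log2 change was 2.51 (SE 0.54, edgeR adjusted p = 0.048), and 2.91 without replicate 1 of leukemia 1 (edgeR adjusted p = 0.081). Without replicate 2 of leukemia 1, or without replicate 1 of leukemia 92, it had too few reads to test. Hist1h4f did not pass in DESeq2 (adjusted p = 0.17), without the filter (edgeR adjusted p = 0.064) or in the 3-group fit (edgeR adjusted p = 0.084). Hist1h4i, the H4 gene with the most reads, did not pass. It was at 4.25 and 9.80 CPM in leukemia 1, 4.06 and 4.29 in leukemia 92, and 4.83 and 4.25 in pro-B cells (log2 change 0.46, edgeR adjusted p = 0.41). Only replicate 2 of leukemia 1 stood out. Hist1h4n (log2 change 1.32, edgeR adjusted p = 0.10) had all leukemia libraries above pro-B cells, while Hist2h4 (0.68, edgeR adjusted p = 0.24) and Hist1h4c (1.18, edgeR adjusted p = 0.42) overlapped.

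Summed over all genes of each type, the order of the groups differed between types. With the gene with the most reads of each type left out, the orders were more alike, as given below. H1 summed to 32.4 and 157 CPM in leukemia 1, 86.6 and 66.0 in leukemia 92, and 33.7 and 35.5 in pro-B cells. H3 summed to 8.57 and 15.1 CPM, 9.77 and 8.03 CPM, and 4.99 and 4.95 CPM in the same order. H3 was the type in which every leukemia library was above both pro-B libraries, and for H1 replicate 1 of leukemia 1 fell below. H2A summed to 6.10 and 29.5 CPM in leukemia 1, 10.3 and 7.45 in leukemia 92, and 15.3 and 15.3 in pro-B cells. H2B summed to 22.3 and 75.3 CPM, 42.4 and 39.3 CPM, and 45.2 and 45.3 CPM. For both types replicate 2 of leukemia 1 alone was above pro-B cells. H4 summed to 6.25 and 18.5 CPM in leukemia 1, 7.76 and 7.36 in leukemia 92, and 7.27 and 6.66 in pro-B cells, so its groups overlapped.

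The mean of the leukemia libraries over that of the pro-B libraries was 2.47 for H1, 2.08 for H3, 1.43 for H4, 0.99 for H2B and 0.87 for H2A. The ratios of H2A, H2B, H3 and H4 rested in part on a single gene. Without the gene with the most reads of the type, which is Hist3h2a for H2A and Hist2h2be for H2B, the ratios were 1.82 and 1.80. Without Hist2h3c1 the ratio of H3 was 1.63. Its sum was then 2.47 CPM in replicate 1 of leukemia 1 against 3.56 and 3.37 CPM in pro-B cells, so the groups overlapped. Without Hist1h4i, H4 summed to 2.01 and 8.71 CPM in leukemia 1, 3.70 and 3.07 in leukemia 92, and 2.44 and 2.41 in pro-B cells. With the leading gene left out, replicate 1 of leukemia 1 was below both pro-B libraries in H2B, H3 and H4. The other leukemia libraries were above them. H1 and H2A came near this order. In H1 replicate 1 of leukemia 1, and in H2A replicate 2 of leukemia 92, lay between the pro-B libraries. With all genes kept, leaving out each library in turn gave 1.78 to 2.98 for H1, 1.77 to 2.24 for H3 and 1.02 to 1.61 for H4. It gave 0.77 to 1.16 for H2B and 0.52 to 1.03 for H2A. In each type the lowest of these ratios was reached without replicate 2 of leukemia 1.

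**Figure D5:**
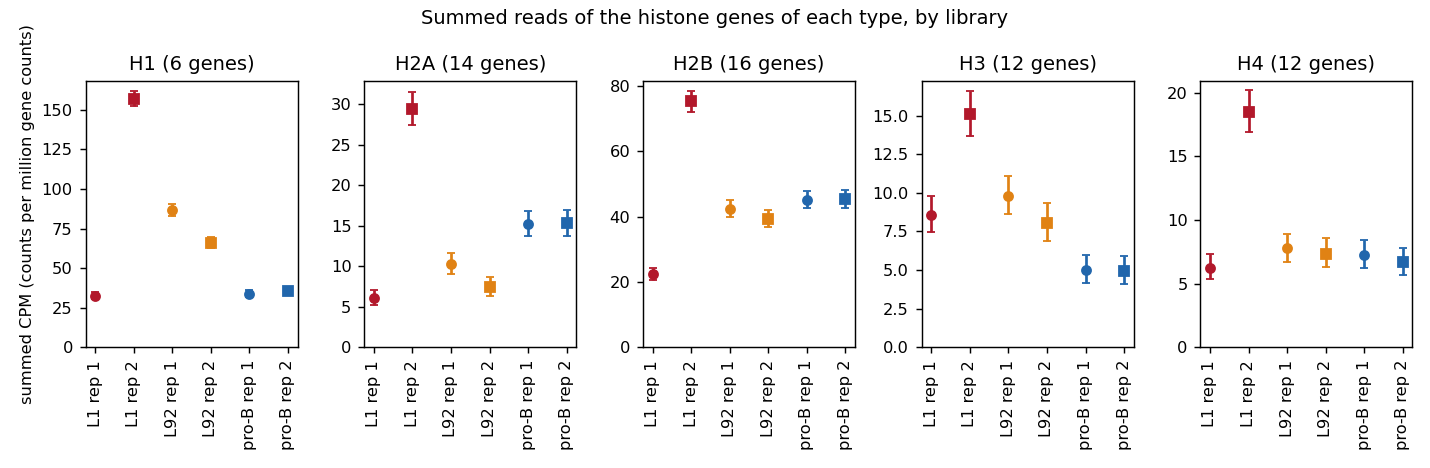
Summed CPM of the histone genes of each type in every library, each panel with its own axis from 0. Bars are exact Poisson 95% intervals of the summed reads and cover counting error only. L1 is leukemia 1 and L92 leukemia 92, and replicate 2 of leukemia 1 is the highest library in all 5 panels.

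Leukemia 92 was set against leukemia 1 in a fit of all 6 libraries, to see whether the 2 leukemias differ in these genes. None of the 37 histone genes tested passed edgeR's test, against 3.09% of the 14979 genes tested, and 1 had an unadjusted p under 0.05. DESeq2 called 1 gene lower. In both cases the gene was Hist3h2a, with a log2 change of -1.01 (edgeR adjusted p = 0.13, DESeq2 adjusted p = 0.038). The median log2 change over the 37 was -0.40, against -0.08 over all genes tested. This comparison turned on the library of leukemia 1 that was used. Without replicate 1 of leukemia 1 the median was -1.16, with 25 of 50 histone genes tested lower in leukemia 92 and none higher. Over all 15778 genes tested there, 3869 were higher and 4106 lower. Without replicate 2 it was 1.07, with 15 of 37 histone genes higher and 1 lower, against 3909 higher and 4224 lower of all 15488 genes. The direction of the difference between the leukemias was thus opposite with either library, and in both of these fits leukemia 1 has a single library that is assumed to vary like the other groups.

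The genes were also grouped by the stem-loop of their listed transcript. Of the 18 genes whose model stops within 100 bases of the stem-loop, 14 were tested, 2 were higher in leukemia and none lower, with a median log2 change of 1.31. Of the 22 whose model runs on, 17 were tested, 3 were higher and 1 lower, with a median of 0.66. Of the 20 with no stem-loop in the model, 12 were tested, 2 were higher and 1 lower, with a median of 1.20. The replicate 2 to replicate 1 ratio in leukemia 1 had a median of 4.72, 4.12 and 7.55 in these classes. The difference between the leukemia 1 libraries was thus present in each class, and no test between classes was made.

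Genes that act on histone RNA and protein were read beside the histone genes. For this list and the variant, chaperone and S-phase lists that follow, the shares over all 15280 genes tested were 9.54% higher and 10.7% lower. The few calls per list are therefore given as single genes and not as a result about the list. Of 25 genes of histone transcription and mRNA processing, 1 was higher in leukemia, 1 lower and 23 did not pass (median log2 change -0.05). Hinfp, a transcription factor of H4 genes, was at 49.7 and 16.8 CPM in leukemia 1, 41.8 and 45.6 in leukemia 92, and 18.1 and 18.3 in pro-B cells. Replicate 2 of leukemia 1 was below pro-B cells and the other leukemia libraries above. Its log2 change was 1.23 (SE 0.22, edgeR adjusted p = 0.036), and 0.91 without replicate 1 of leukemia 1 (edgeR adjusted p = 0.30). Hinfp did not pass in the 3-group fit (edgeR adjusted p = 0.12). Cpsf2, a subunit of the cleavage complex, was at 182 and 146 CPM in leukemia 1, 135 and 134 in leukemia 92, and 272 and 271 in pro-B cells. All leukemia libraries were below pro-B cells, with a log2 change of -0.71 (SE 0.13, edgeR adjusted p = 0.035), and -0.62 without replicate 2 of leukemia 1 (edgeR adjusted p = 0.10).

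Slbp, the stem-loop binding protein, was at 180.5 and 158 CPM in leukemia 1, 81.7 and 91.5 in leukemia 92, and 202 and 194 in pro-B cells. Each leukemia library was below both pro-B libraries, and leukemia 92 was lowest. Against pro-B cells Slbp did not pass (log2 change -0.49, edgeR adjusted p = 0.34) except in the 3-group fit (edgeR adjusted p = 0.025), and it was lower in leukemia 92 than in leukemia 1 (log2 change -0.96, edgeR adjusted p = 0.045). Npat (log2 change 0.01, edgeR adjusted p = 0.98) and Casp8ap2, a partner of NPAT at histone genes (log2 change -0.06, edgeR adjusted p = 0.92), did not pass against pro-B cells. Casp8ap2 was at 194 and 49.6 CPM in leukemia 1, 58.9 and 61.7 in leukemia 92, and 105 and 102 in pro-B cells. In both genes replicate 1 of leukemia 1 was the highest library and the other leukemia libraries were below pro-B cells. Without replicate 1 of leukemia 1 the log2 change of Npat was -0.59, and without replicate 2 that of Casp8ap2 was 0.44.

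Among 11 replacement and variant histones, most of which are made throughout the cycle from polyadenylated mRNA, none was higher in leukemia, 2 were lower and 9 did not pass (median log2 change -0.39). H2afv, which encodes an H2A.Z, was at 36.0 and 72.0 CPM in leukemia 1, 34.8 and 32.2 in leukemia 92, and 137 and 140.5 in pro-B cells. All leukemia libraries were below pro-B cells, with a log2 change of -1.50 (SE 0.24, edgeR adjusted p = 0.030), and -1.24 without replicate 1 of leukemia 1 (edgeR adjusted p = 0.12). H1fx, a variant linker histone, held no read in any leukemia library and 17 and 13 reads in pro-B cells. It was at least 20.6-fold lower in leukemia, taking 3 reads over the group as the limit of a count of 0 (edgeR adjusted p = 0.025).

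Of 20 histone chaperone and import genes, 1 was higher, 1 lower and 18 did not pass (median log2 change -0.39). Ipo4, which imports H3 and H4, was at 77.6 and 60.0 CPM in leukemia 1, 74.3 and 77.2 in leukemia 92, and 52.6 and 52.2 in pro-B cells (log2 change 0.62, SE 0.14, edgeR adjusted p = 0.049). Ssrp1, a subunit of the chaperone FACT, was at 402 and 456 CPM, 300 and 314 CPM, and 713 and 726 CPM in the same order (log2 change -0.81, SE 0.18, edgeR adjusted p = 0.049). The groups did not overlap in either gene, and without replicate 1 of leukemia 1 neither passed (edgeR adjusted p = 0.13 and 0.10). Ipo4 did not pass without the filter or with DESeq2's size factors either (edgeR adjusted p = 0.050 and 0.053). Ssrp1 also missed the threshold without replicate 2 of leukemia 92 (edgeR adjusted p = 0.053).

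Of the 20 S-phase genes, which share their timing with the histone genes, none was higher in leukemia, 1 was lower and 19 did not pass (median log2 change -0.50). The gene was Ccna2, the cyclin of S phase, at 169 and 209 CPM in leukemia 1, 93.5 and 105 in leukemia 92, and 449 and 459 in pro-B cells. The groups did not overlap. Its log2 change was -1.51 (SE 0.32, edgeR adjusted p = 0.048), and Ccna2 missed the threshold without replicate 1 of leukemia 1 or replicate 2 of leukemia 92 (edgeR adjusted p = 0.095 and 0.054). Between the leukemias, 6 of the 20 S-phase genes were lower in leukemia 92 and none higher in edgeR's test, among them Mcm5, Mcm6 and Pcna. Of all 14979 genes tested, 190 were lower and 273 higher. With any library of leukemia 92 or of pro-B cells left out, no gene of the table passed this comparison. The same comparison gave 1 processing gene lower (Slbp), 1 chaperone lower (Nasp), and 1 variant histone higher (H1f0) and 1 lower (H3f3b). Against pro-B cells, the median of the S-phase genes was below 0 and that of the histone genes above it, in the same fit.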

How the data were processed

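RNA of 6 mouse libraries was sequenced, and the authors deposited raw read counts per gene. Per the submitters' processing notes, STAR 2.4, HTSeq 0.6.1, DESeq2 and mm9 were used, in roles that the notes leave out. Which gene models were counted, and with which strand option, is not given in the sources used here. Reads of overlapping or antisense genes can therefore not be told apart. The 5 entries that name no gene (34.0% to 39.6% of a library's entries) were left out. Genome sequence of mm9 was not used here, and transcripts and promoters of build GRCm38 served for sequence only.

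Groups came from the sample titles. The test was edgeR 4.0.16 in R 4.3.3 (robust quasi-likelihood, filterByExpr with a minimum count of 10, TMM, Benjamini-Hochberg over all genes tested), and a gene was called at an adjusted p under 0.05. Leukemia against pro-B used reads summed per leukemia, 2 leukemias against 2 libraries, and leukemia 92 against leukemia 1 used 6 libraries in 3 groups. The standard error is the log2 change over the square root of F. Alternatives were DESeq2 1.42.0, its size factors in edgeR, no filter, the 3-group fit, a replicate block and libraries left out. The test was checked on simulated counts.

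Genes named are the 4 of each type with the most reads, every histone gene called, up to 3 called genes of each list of processing, variant, chaperone and S-phase genes per comparison, and Slbp, Npat and Casp8ap2. Some marker genes are not reported here. Members and lists were chosen with earlier results of these data known. Intervals and limits of a count of 0 cover counting error only. With 2 libraries per group no outlier test was possible.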

Additional observations from a re-analysis of the deposited data

Results flagged for a closer look

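Of the genes of the processing, variant, chaperone, S-phase and pro-B marker lists that are named above, 9 differed between leukemia 92 and leukemia 1 in the 3-group edgeR fit. Several were named because they passed this comparison, so the number 9 is no result. Over the whole lists, 1 of 25 processing genes, 1 of 20 chaperones, 6 of 20 S-phase genes and 1 of 11 pro-B markers were lower. Of 11 variant histones, 1 was higher and 1 lower. Over all 14979 genes tested, 3.09% passed. The log2 change of leukemia 92 against leukemia 1 was -0.96 for Slbp (edgeR adjusted p = 0.045). It was -0.98 for H3f3b, which encodes the replacement histone H3.3 (edgeR adjusted p = 0.031), and 1.23 for H1f0, the linker histone H1.0 of resting cells (edgeR adjusted p = 0.031). It was -0.99 for Nasp, a chaperone of H1 and H3 (edgeR adjusted p = 0.035). The S-phase genes Mcm5, Mcm6, Pcna and Ccna2 changed by -0.77, -0.83, -0.86 and -0.92 (edgeR adjusted p = 0.046, 0.045, 0.047 and 0.047). Rag2, a pro-B marker, changed by -1.84 (edgeR adjusted p = 0.030). Without the filter on low counts Slbp, Mcm5, Mcm6 and Pcna did not pass (edgeR adjusted p = 0.053, 0.062, 0.061 and 0.053). With any library of leukemia 92 or of pro-B cells left out, or with the replicate block, no gene of the table passed this comparison. H1f0 was at 11.5 and 11.7 CPM in leukemia 1 against 25.9 and 28.3 CPM in leukemia 92, while each pro-B library held 25.8 CPM.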

How the results depend on the processing

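Histone genes higher against pro-B cells numbered 7, and 2 in the 3-group fit, 1 with the replicate block, 13 without both libraries of leukemia 1 and 25 without both of leukemia 92. In the last 2 fits a single summed leukemia is assumed to vary like the pro-B pair, which gives all of the spread. Leaving out single libraries gave 0 to 7 higher, 0 to 2 lower and a median of 0.22 to 1.42. Genes higher numbered 1458, and 2335 in DESeq2, 4893 and 4659 without both libraries of leukemia 1 or 92, and 0 to 1544 over single libraries. Genes lower numbered 1631, and 2605 in the 3-group fit, 5241 and 4676 without both libraries, and 0 to 1725 over single libraries. Between the leukemias, DESeq2 gave 1 histone gene lower, 1322 genes higher and 1345 lower, and the replicate block 0 and 0, against 273 and 190. Leaving out single libraries gave 0 to 15 histone genes higher, 0 to 25 lower, 0 to 3909 genes higher, 0 to 4224 lower and a median of -1.16 to 1.07. The ratios of summed H2A and H2B were 1.82 and 1.80 without their leading gene, and over single libraries the ranges stand in the report. For single genes, 336 values under other settings comprised 203 with the same direction and side of the threshold, 111 that lost the call, 45 of them with a pro-B library left out, 12 that gained it and 10 that reversed. Npat reversed to -0.0036 with DESeq2's size factors in edgeR, -0.0037 in DESeq2, -0.063 in the 3-group fit, -0.16 with the replicate block, and -0.59 without both libraries of leukemia 1, and it ran from -0.59 to 0.47 over single libraries left out. Casp8ap2 reversed to 0.44 without replicate 2 of leukemia 1 and 0.32 without both libraries of leukemia 92, and it ran from -0.75 to 0.44 over single libraries. The cause was not tested. Same-numbered libraries did not deviate together (r = -0.17, 0.06 and -0.04), so they share only a number, and the pairing carries no further weight. With the replicate block, edgeR's adjusted p was 0.20 for Hist1h1c, 0.14 for Hist1h1d, Hist1h1a and Hist1h4f, 0.34 for Hist1h2ad, 0.051 for Hist1h2bc, 0.068 for H1fx, 0.15 for Hinfp and 0.067 for Ipo4, and 0.0093 to 0.042 for Hist2h2be, Hist2h3c1, Hist3h2a and Hist3h2ba. Depth limits the 17 histone genes that were not tested.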
